A study of Mus musculus with 6 samples.

Results

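The genes described here are 10 enzymes of glycolysis, Hk1, Hk2, Gpi1, Pfkl, Aldoa, Aldoc, Pgk1, Eno1, Pkm and Ldha, taken by symbol from the name column of a deposited table of 21936 genes. All 10 symbols were found, and all 10 passed the filter on low counts that left 11809 genes for testing. Messenger RNA was profiled in PAM212, an established line labelled as mouse keratinocytes, kept in DMEM with fetal bovine serum. The study compared 3 libraries from cells infected with a lentivirus that carries the mouse miR-28-3p gene with 3 control libraries labelled as not treated. Their titles carry the letters NC, and the labels do not say if the control cells received a vector of their own. The labels name no separate cultures, so p-values measure the spread between these libraries, which may be technical only. Cells are named keratinocytes in the sample labels and melanocytes in the series' design line.

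Glycolysis converts glucose to pyruvate in the cytosol, and lactate dehydrogenase then turns pyruvate to lactate and restores the NAD+ that the pathway uses. Its first steps spend ATP to trap and split the sugar, and its later steps return ATP. Most steps have several isozymes encoded by separate genes, which differ in tissue, in regulation or in both. Proliferating cells, keratinocytes in culture among them, take up much glucose and release much of it as lactate. Several of these genes are textbook targets of the hypoxia-inducible factor HIF1 and of MYC.

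The libraries held between 14309898 and 16383374 counted reads. Weighted by counted reads, mean gene length ran from 5091 to 5119 bases in the controls and from 6021 to 6050 bases with overexpression, so that gene length moved with the groups. Of 12 keratinocyte marker genes Krt5, which defines basal keratinocytes, was at 0 in every library, while Trp63 had 14, 17 and 22 counts in the controls and 0, 5 and 0 with overexpression. The summed level of the 12 markers ran from 1966 to 1976 CPM (counts scaled to a common library size, with TMM, a trimmed mean of expression ratios, between libraries) in the controls and from 1712 to 1733 CPM with overexpression, but its members moved apart. Of the 11 tested, 6 were called lower and 5 higher. Krt15 went from 343, 310 and 352 counts to 0 in every overexpression library, Dsg3 fell 9.42-fold and Epcam, the largest part of the control sum, fell 2.64-fold, while Itga6 rose 2.36-fold and Cdh1 1.39-fold. The 8 melanocyte markers summed to between 8.05 and 9.78 CPM and between 7.33 and 8.22 CPM, with Tyr and Kit at 0. Among them Tyrp1 and Dct had 0 counts in every control library and 7, 18 and 15 and 10, 8 and 13 counts with overexpression, while Mitf and Pmel were called lower. Sums for 7 fibroblast markers went from 43.3 to 52.0 and from 16.2 to 17.1 CPM (Lum and Thy1 at 0), for 7 immune markers from 18.6 to 21.7 and from 4.86 to 6.80 CPM (Cd3e at 0), and for 5 endothelial markers from 0.264 to 0.635 and from 0.462 to 0.821 CPM (Kdr at 0). Values with a length trend removed, by a smooth curve of each library's deviation against gene length, stand beside some of the results. They are not given for every gene that they move. The part of other cells and of the changed keratinocyte and melanocyte genes was not tested.

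The mature microRNA that was overexpressed is shown first because its seed, bases 2 to 8 in capitals, defines the sites that were looked for in the enzyme genes. It is mouse miR-28a-3p in RefSeq on GRCm38.p6, chromosome 16, 24827908 to 24827929, plus strand.
mmu-miR-28a-3p: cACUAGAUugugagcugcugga
The matching 7-base site, ATCTAGT, was found in the longest annotated 3' untranslated region of 0 of the 10 enzyme genes, against 786 of 11688 tested genes (6.72%). The shorter site TCTAGT, which pairs with bases 2 to 7, occurred once each in Hk1 and Hk2 and in none of the other 8, against 27.5% of tested genes. These regions ran from 188 bases in Aldoa to 2288 bases in Hk2, against a median of 1380 bases over the tested genes, and no sites outside them were looked for.

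Promoters are shown because members of the pathway moved in both directions, and because HIF1 and MYC recognise short motifs that can be read off the sequence. RefSeq windows from 250 bases before to 50 bases after an annotated start were available for all 10 genes, 18 windows in all. Capitals mark the HIF core motifs ACGTG and GCGTG on either strand, so that CACGT and CACGC are the same motifs on the other strand. The windows are those of Aldoc, which fell most, of Hk2 and Gpi1, which fell by less, and of Ldha, which was higher. Aldoc and Ldha have 2 windows each, and the first is shown. The other window of each holds no ACGTG but does hold GCGTG, 1 copy in Aldoc and 2 in Ldha. Those shown lie at chr11:78322823-78323122 (plus strand), chr6:82774405-82774704 (minus), chr7:34230287-34230586 (minus) and chr7:46845554-46845853 (plus) of GRCm38.p6.
Aldoc: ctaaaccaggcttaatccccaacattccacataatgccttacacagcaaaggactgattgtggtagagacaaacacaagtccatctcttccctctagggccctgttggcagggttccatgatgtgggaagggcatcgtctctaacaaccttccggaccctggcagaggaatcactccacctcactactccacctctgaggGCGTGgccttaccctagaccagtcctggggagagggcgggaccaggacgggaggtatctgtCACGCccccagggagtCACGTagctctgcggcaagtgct
Hk2: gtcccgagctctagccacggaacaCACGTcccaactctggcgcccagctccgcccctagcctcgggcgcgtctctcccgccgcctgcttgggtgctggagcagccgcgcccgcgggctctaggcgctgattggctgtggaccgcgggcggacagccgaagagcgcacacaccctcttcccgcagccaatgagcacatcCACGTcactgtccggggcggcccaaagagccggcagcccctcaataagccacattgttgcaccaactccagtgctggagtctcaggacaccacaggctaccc
Gpi1: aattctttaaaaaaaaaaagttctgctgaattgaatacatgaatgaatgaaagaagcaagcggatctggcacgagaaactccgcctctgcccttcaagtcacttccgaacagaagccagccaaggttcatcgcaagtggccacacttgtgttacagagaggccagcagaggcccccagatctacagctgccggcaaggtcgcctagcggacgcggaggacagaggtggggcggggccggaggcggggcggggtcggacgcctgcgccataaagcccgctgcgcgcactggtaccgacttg
Ldha: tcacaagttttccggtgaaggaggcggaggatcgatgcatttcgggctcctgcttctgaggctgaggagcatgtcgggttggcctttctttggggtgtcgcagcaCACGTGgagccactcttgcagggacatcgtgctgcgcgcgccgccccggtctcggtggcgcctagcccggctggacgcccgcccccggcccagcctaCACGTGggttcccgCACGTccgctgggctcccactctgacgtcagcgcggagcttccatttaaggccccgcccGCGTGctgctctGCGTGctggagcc
The motif ACGTG occurred in at least 1 window of 7 of the 10 genes, against 21.8% of 27025 genes with a window and 29.5% of the 9437 tested genes that have one. The 7 genes were Hk1, Hk2, Aldoa, Aldoc, Pgk1, Pkm and Ldha, of which 5 were lower and 2 higher with overexpression. GCGTG occurred in 5 of the 10 genes, against 35.2% of all genes and 56.9% of tested genes. Counted by window, ACGTG was in 8 of 18, against 19.6% of all windows, and GCGTG in 9 of 18, against 32.4%. The 10 genes have more windows per gene, 18, against 32851 for 27025 genes, and some windows of a gene overlap. The Ldha window held 2 copies of the E-box CACGTG that MYC binds, which contains ACGTG on both strands and so counts toward it on each, and 1 further CACGT. This E-box was found in the windows of 1 of the 10 genes, against 8.09% of all genes and 11.8% of tested genes. Gpi1 held none of these motifs in its window. A match is a string of letters in the window and says nothing of binding.

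The 7 genes of the steps from hexokinase to phosphoglycerate kinase were lower with miR-28-3p overexpression, and Eno1, Pkm and Ldha, which serve the steps from enolase to lactate, were higher. The genes next to this divide, Pgk1 and Eno1, change sign with the processing, Pgk1 to 0.23 on the log2 scale (called higher) with the length trend removed and Eno1 to -0.03 with upper quartile scaling. Other genes of the later steps, Pgam2, Eno2, Eno3 and Ldhb, were called lower, and position in the pathway was not tested. By edgeR's quasi-likelihood test with Benjamini-Hochberg adjustment over all tested genes, 7 of the 10 were called lower and 3 higher at an adjusted p under 0.05. Over all tested genes 43.9% were called lower and 42.1% higher, 86% in all, so that a call by itself sets none of the 10 apart. The sizes were mostly modest. The median log2 fold change of the 10 was -0.31, against -0.03 over all tested genes, and the median size was 0.39, against 0.72. The median of the 10 was -0.59 with the length trend removed and -0.54 with upper quartile scaling. Upper quartile scaling also lowered the median over all tested genes, as given further on. That median with the length trend removed is not given here. In bulk RNA a smaller number of cells of a type and less RNA per cell cannot be told apart. Together the 10 genes took 0.965 ± 0.00405% of counts in the controls and 0.874 ± 0.00142% with overexpression (SD, n = 3; exact permutation p = 0.1, two-sided, the smallest that 3 against 3 can give).

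**Figure D1:**
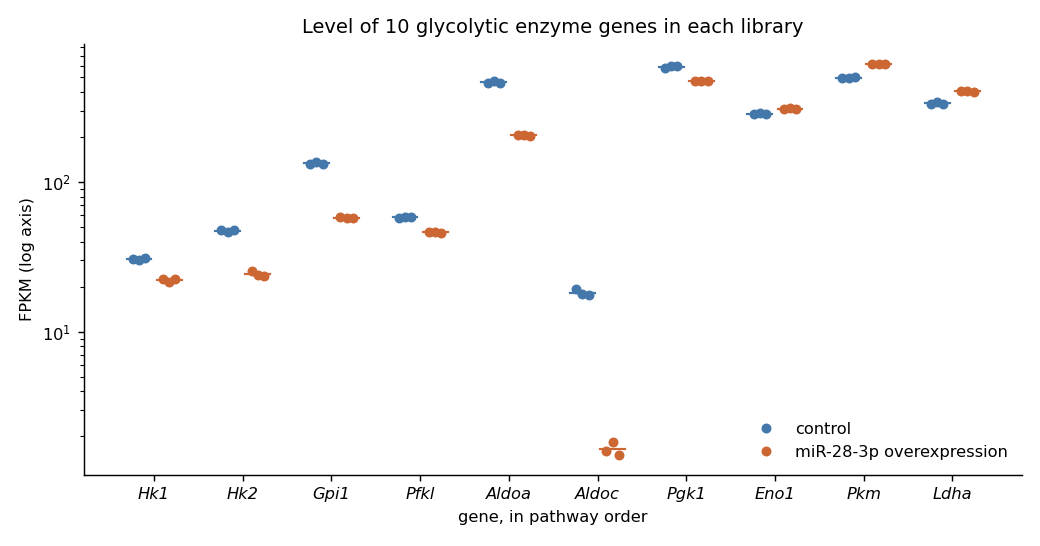
FPKM (counted reads scaled to gene length and to the library's total, log axis) of the 10 glycolytic enzyme genes in each library, in pathway order, with points for libraries and a line for the group mean. In each gene the control and overexpression libraries do not overlap, and Aldoc falls from 18.2 to 1.63 FPKM.

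Hexokinase phosphorylates glucose and so keeps it in the cell. Hk2 (ENSMUSG00000000628, chromosome 6, 82725025 to 82774454), the inducible isozyme that binds mitochondria, read 274, 268 and 277 CPM in the control libraries, against 157, 148 and 145 CPM in the overexpression libraries. All 3 overexpression libraries lay below all 3 controls, as they did in 43.8% of tested genes. Its log2 fold change was -0.87 ± 0.03 (SE, edgeR adjusted p = 3.62e-34), 1.82-fold lower. Hk1 (chromosome 10, 62268855 to 62379908), the broadly expressed isozyme, had 254, 248 and 255 CPM against 198, 188 and 198 CPM, again without overlap. It was 1.30-fold lower, with a log2 fold change of -0.38 ± 0.03 (edgeR adjusted p = 6.34e-18), and -0.72 for Hk1 with the length trend removed. Of the other glucose-phosphorylating enzymes, Hkdc1 had 0 counts in every library, which allows up to 3 counts, and Hk3 had at most 4. Adpgk, which phosphorylates glucose with ADP in place of ATP, went the other way, from 36.8 ± 1.81 to 79.9 ± 5.38 CPM (SD, n = 3), 2.17-fold higher.

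Gpi1 (ENSMUSG00000036427, chromosome 7, 34201330 to 34230336), the isomerase that makes fructose 6-phosphate, is a single-gene step. It read 828, 848 and 826 CPM in the control libraries, against 388, 385 and 384 CPM in the overexpression libraries. The libraries of each group lay within a few percent of one another and the groups were far apart. The fall was 2.16-fold, a log2 fold change of -1.11 ± 0.02 (edgeR adjusted p = 6.59e-47).

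Phosphofructokinase commits the sugar to glycolysis, and its 3 isozymes assemble into tetramers. Pfkl (chromosome 10, 77986947 to 78010083), the liver-type subunit, read 368, 380 and 378 CPM in the control libraries, against 318, 321 and 314 CPM in the overexpression libraries. It was 1.18-fold lower without overlap (log2 fold change -0.24 ± 0.03, edgeR adjusted p = 3.51e-13), and with the length trend removed Pfkl was at -0.45. The muscle-type Pfkm fell more, from 60.2 ± 0.711 to 25.1 ± 3.06 CPM (SD, n = 3; log2 fold change -1.26 ± 0.07), and the platelet-type Pfkp fell from 136 ± 1.94 to 93.5 ± 0.801 CPM (-0.55 ± 0.04). Pfkp has the longest gene model of the 3, 13401 bases. Its part of their summed FPKM went from 12.1 ± 0.239% to 11.2 ± 0.137%. With the length trend divided out it went from 13.7 ± 0.206% to 9.98 ± 0.158%.

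Aldolase splits fructose 1,6-bisphosphate into 2 triose phosphates. Aldoa (ENSMUSG00000030695, chromosome 7, 126795234 to 126800751), the main isozyme of most tissues, read 1300, 1326 and 1300 CPM in the control libraries, against 620, 616 and 611 CPM in the overexpression libraries. The groups did not overlap, and the fall was 2.13-fold (log2 fold change -1.09 ± 0.02, edgeR adjusted p = 2.35e-48). With the length trend removed Aldoa stood at -0.78 and so fell by less than 2-fold. A second, upstream row with the symbol Aldoa (chromosome 7, 126800790 to 126809108) had 10 to 27 counts per library and showed no call (edgeR adjusted p = 0.996). Aldoc (ENSMUSG00000017390, chromosome 11, 78322968 to 78327781), known best from brain, read 60.7, 56.3 and 56.0 CPM in the control libraries, against 5.34, 6.14 and 5.05 CPM in the overexpression libraries. It showed the largest fall of the 10, 10.5-fold, with a log2 fold change of -3.39 ± 0.09 (edgeR adjusted p = 4.9e-41). On FPKM the size depended on the pseudocount, since limma on log2(FPKM + 5) gave -1.81 for Aldoc. At least 2-fold falls were called for Gpi1, Aldoa and Aldoc, 3 of the 10, against 21% of tested genes, and at least 2-fold rises for 0 of the 10, against 14.8%.

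Between aldolase and phosphoglycerate kinase lie 2 steps whose genes are not among the 10. Tpi1, the isomerase of the trioses, showed no call in edgeR, with 597 ± 11 CPM in the controls and 609 ± 9.70 CPM with overexpression (SD, n = 3). Its sign depended on the scaling, at 0.03 with TMM, -0.20 with upper quartile scaling (called lower) and 0.37 once the length trend was removed (called higher). Gapdh was counted at 91.9 ± 10.4 and 72.9 ± 2.19 CPM, a log2 fold change of -0.33 ± 0.06. Per length its 22.9 FPKM in the controls stood far below the 588 FPKM of Pgk1, the enzyme of the next step, and the sources used here do not say how reads shared with its many processed copies were counted.

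Pgk1 (ENSMUSG00000062070, chromosome X, 106187100 to 106203699) catalyses the first step that returns ATP. It read 1255, 1293 and 1288 CPM in the control libraries, against 1088, 1091 and 1103 CPM in the overexpression libraries. The groups did not overlap, but the fall was the smallest of the 7, 1.17-fold (log2 fold change -0.22 ± 0.02, edgeR adjusted p = 1.37e-15). With the length trend removed Pgk1 stood at 0.23 and was called higher, so its direction rests on the treatment of gene length. Pgk1 has the shortest gene model of the 10, 2244 bases, and Hk1 the longest, 8532 bases. Pgk2, the testis form, had 0 counts.

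The next step, phosphoglycerate mutase, was higher. Pgam1, its main gene, rose from 384 ± 5.01 to 619 ± 5.44 CPM (SD, n = 3; log2 fold change 0.69 ± 0.02, edgeR adjusted p = 2.11e-35). With the length trend left in, this was the largest rise of any enzyme gene of the steps after Adpgk. Removing the trend moved the ratio of summed FPKM for this step from 1.60 to 2.27. The order of Pgam1 (1982 bases) and Adpgk (9609 bases) was not compared there. The muscle form Pgam2 was low, 2.30 ± 0.696 and 1.15 ± 0.397 CPM, and its call downward was lost once the length trend was removed (edgeR adjusted p = 0.565). Bpgm, which makes 2,3-bisphosphoglycerate, passed no threshold in edgeR at 20.1 ± 2.72 and 17.9 ± 1.36 CPM (adjusted p = 0.0976), but it was called lower without control replicate 2 (adjusted p = 0.0156), with upper quartile scaling and in limma on filtered FPKM.

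Enolase makes phosphoenolpyruvate. Eno1 (ENSMUSG00000063524, chromosome 4, 150236721 to 150248879), the ubiquitous isozyme, read 1490, 1498 and 1481 CPM in the control libraries, against 1698, 1726 and 1724 CPM in the overexpression libraries. Every overexpression library lay above every control, as in 42.2% of tested genes. The rise was 1.15-fold (log2 fold change 0.20 ± 0.02, edgeR adjusted p = 6.01e-15), and upper quartile scaling put Eno1 at -0.03, not called (adjusted p = 0.221). Eno1b, a retrotransposed copy of Eno1 on chromosome 18, was counted at 592 ± 20.8 and 581 ± 18 CPM (SD, n = 3), with no call in edgeR. It was called lower with upper quartile scaling (log2 fold change -0.26) and higher with the length trend removed (0.50), and the sources used here do not say how reads were assigned between it and Eno1. With the counts of both summed, a setting chosen after seeing the data, the log2 fold change was 0.14 and still called higher. The neuronal isozyme Eno2 fell 12.3-fold from 52.5 ± 4.41 to 4.23 ± 0.697 CPM, and the muscle isozyme Eno3 1.43-fold from 224 ± 5.79 to 157 ± 4.98 CPM. The fall of Eno3 was not seen with the length trend removed (log2 fold change 0.05, adjusted p = 0.156). Eno4 and the testis form Gapdhs were near 1 CPM in both groups, with no call.

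Pyruvate kinase completes the pathway and yields ATP. Pkm (ENSMUSG00000032294, chromosome 9, 59656368 to 59679375) read 2403, 2387 and 2427 CPM in the control libraries, against 3155, 3174 and 3201 CPM in the overexpression libraries. It rose 1.32-fold without overlap (log2 fold change 0.40 ± 0.02, edgeR adjusted p = 1.01e-29), and 0.17 for Pkm with upper quartile scaling. The counts are per gene, so its M1 and M2 splice forms cannot be told apart. The liver and red cell gene Pklr had 1 count in all libraries together. Ldha (ENSMUSG00000063229, chromosome 7, 46841475 to 46855627), which encodes the subunit that favours lactate formation, read 1058, 1100 and 1069 CPM in the control libraries, against 1378, 1382 and 1374 CPM in the overexpression libraries. It rose 1.28-fold (log2 fold change 0.36 ± 0.02, edgeR adjusted p = 2.63e-24), with 0.59 for Ldha once the length trend was removed and 0.13 with upper quartile scaling. Ldhb, the other somatic subunit, fell from 4.45 ± 0.567 to 0.869 ± 0.185 CPM (SD, n = 3; log2 fold change -2.35 ± 0.28). Pkm and Ldha were the highest 2 of the 10 log2 fold changes, and Aldoc the lowest, in each of the 20 alternative settings.

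**Figure D2:**
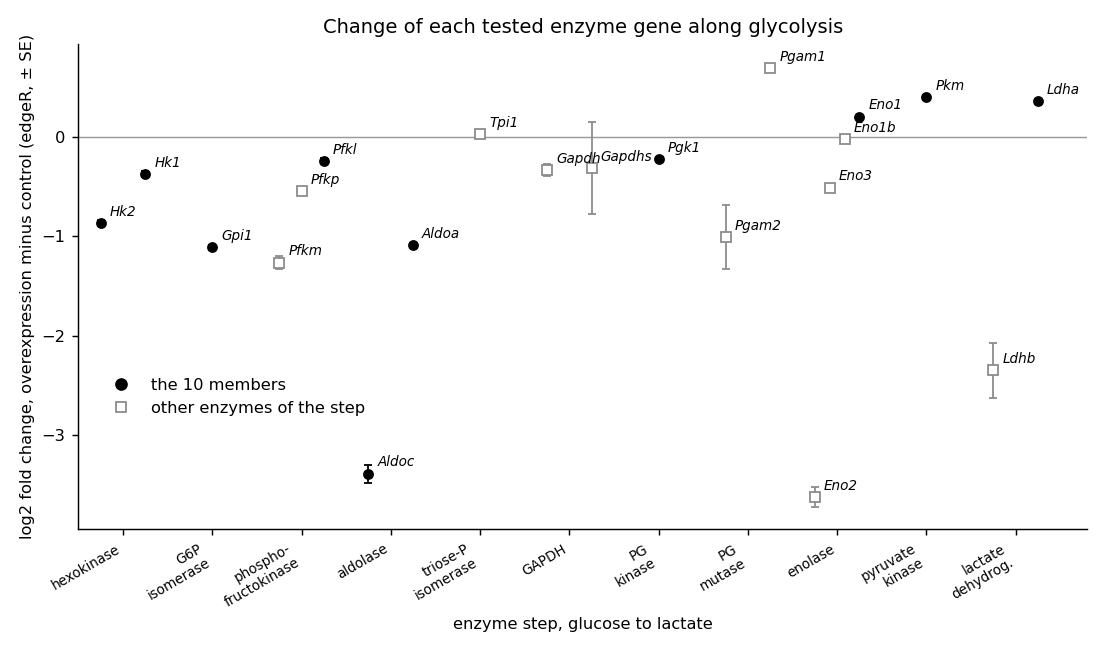
Log2 fold change (overexpression minus control, edgeR, bars ± SE) of tested enzyme genes, ordered by their step from glucose to lactate. The 10 members are filled circles and the other genes of the steps open squares. Adpgk (1.12, called higher), Bpgm and Eno4 were tested but are not drawn. The members up to Pgk1 lie below 0 and Eno1, Pkm and Ldha above it, while Aldoc (-3.39), Eno2 (-3.62) and Ldhb (-2.35) lie lowest.

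Of the 21 other enzymes of these steps, a list drawn up from the pathway, 14 were tested. Of these 7 were called lower, 2 higher and 5 not called, with a median log2 fold change of -0.32. The length trend matters for this list, since with it removed 5 were called lower and 4 higher, with a median of 0.03. With upper quartile scaling 10 were lower and 2 higher.

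Isozymes of a step can be added on the FPKM scale, which is per length. Hexokinase genes summed to 77.8 ± 1.35 FPKM in the controls and 46.4 ± 1.36 FPKM with overexpression (SD, n = 3), and aldolase genes to 482 ± 4.6 and 206 ± 1.75 FPKM. Phosphofructokinase genes went from 87.2 ± 0.508 to 60.1 ± 0.923 FPKM. These 3 steps fell without overlap between libraries. Phosphoglycerate mutase rose from 203 ± 1.88 to 304 ± 2.46 FPKM, pyruvate kinase from 497 ± 4.21 to 615 ± 3.52 FPKM and lactate dehydrogenase from 338 ± 6.08 to 404 ± 1.54 FPKM, also without overlap. The enolase genes, Eno1b included, summed to 756 ± 16.1 and 697 ± 12.7 FPKM, a ratio of 0.922 that became 0.983 when FPKM was rescaled with the TMM library sizes, an alternative chosen after seeing the data. Under both scalings the ratio was lowest for aldolase (0.428 and 0.456) and glucose-6-phosphate isomerase (0.434 and 0.463) and highest for phosphoglycerate mutase (1.5 and 1.60). FPKM as deposited carries the length trend. With the trend divided out, a further alternative chosen after seeing the data, the ratio was 0.405 for the isomerase, 0.542 for hexokinase, 0.566 for aldolase and 2.27 for the mutase, and it turned above 1 for triosephosphate isomerase (1.30), phosphoglycerate kinase (1.17) and enolase (1.19).

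The order of the 10 genes by level changed with overexpression. In the controls it ran, in FPKM, from Pgk1 (588 ± 8.17) through Pkm (497 ± 4.2), Aldoa (464 ± 4.79), Ldha (335 ± 6.44), Eno1 (286 ± 1.71), Gpi1 (133 ± 1.83), Pfkl (58.1 ± 0.868), Hk2 (47.2 ± 0.866) and Hk1 (30.5 ± 0.462) to Aldoc (18.2 ± 0.881). With overexpression Pkm (615 ± 3.52) stood first, and Aldoa (205 ± 1.68) had dropped below Ldha (403 ± 1.57) and Eno1 (309 ± 2.48) (SD, n = 3). Hk2 (24.3 ± 1.01) and Hk1 (22.1 ± 0.632) came close to each other. No neighbours in either order overlapped between libraries.

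Within families the balance of isozymes shifted. The share of Hk1 in the summed FPKM of the glucose-phosphorylating genes was 39.3, 39.3 and 39.1% in the controls and 46.9, 47.0 and 48.8% with overexpression, with Hk2 making up nearly all of the rest. Pfkl went from 66.6 ± 0.611% to 76.7 ± 1.30% of the phosphofructokinase sum (SD, n = 3), as Pfkm went from 21.3 ± 0.418% to 12.1 ± 1.33%. Aldoa, already 96.2 ± 0.190% of the aldolase sum, reached 99.2 ± 0.0785%. Eno1 went from 66.4 ± 0.537% to 77.7 ± 0.492% of the sum over Eno1, Eno2 and Eno3, and Ldha from 99.1 ± 0.126% to 99.8 ± 0.0108% of the lactate dehydrogenase sum. In each of these 5 families the groups did not overlap and the share of the member named was higher in all 3 overexpression libraries (two-sided exact permutation p = 0.1, the smallest possible here, and 0.14 adjusted over 7 families). A share is a ratio within a library and does not depend on the scaling between libraries, but it does depend on the length trend where isozymes differ in length. With that trend divided out Eno1 went only from 70.8 ± 0.458% to 73.8 ± 0.424% and Eno3 overlapped between groups, at 26.4 ± 0.26% and 26.0 ± 0.406% (SD, n = 3). The share of Hk1 then went from 40.9 ± 0.119% to 45.9 ± 1.05%, and the gains of Pfkl (8.39 points in place of 10.1), Aldoa (3.10 and 2.99) and Ldha (0.591 and 0.714) moved less. Pgk1 and Pkm made up all or nearly all of their families in every library.

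**Figure D3:**
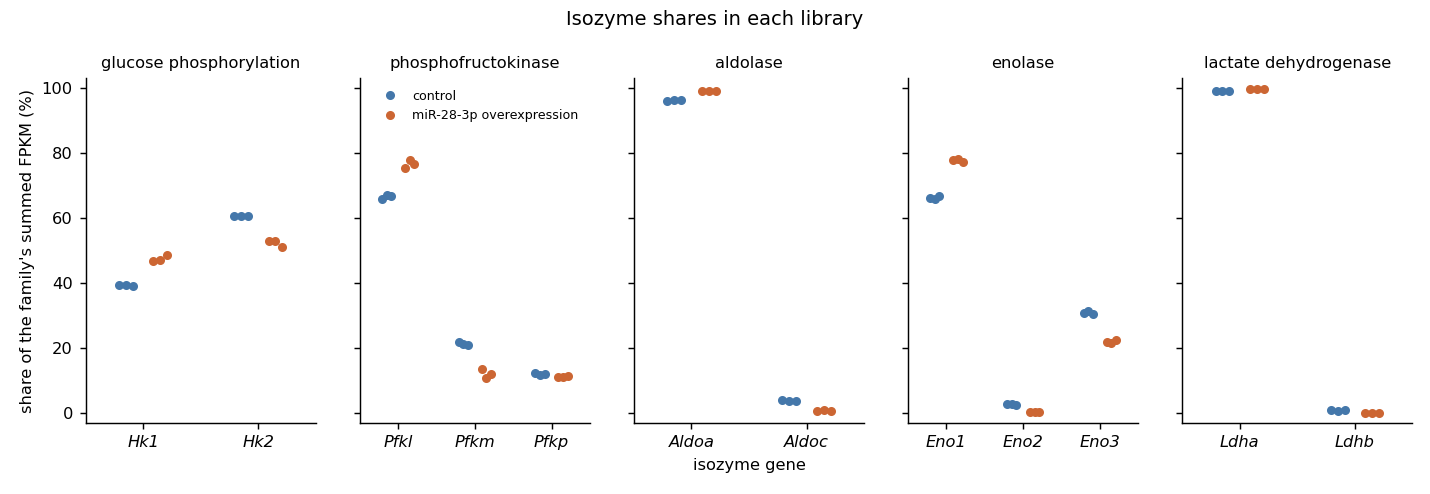
Share of each isozyme gene in the summed FPKM of its family, in percent, with 1 point per library and 1 panel per family, isozymes under 0.1% in both groups left out. Hk1, Pfkl, Aldoa, Eno1 and Ldha sit higher in the overexpression libraries. Hk2, Pfkm, Pfkp, Aldoc, Eno2, Eno3 and Ldhb sit lower, Eno3 only before the length trend is divided out.

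Genes that bring glucose in and carry lactate out were looked at from a list of 14, of which 8 were tested. There 6 were called lower and 1 higher, with a median log2 fold change of -0.81 (-0.40 in limma on log2(FPKM + 5)). Slc2a1, the main glucose transporter of keratinocytes, fell from 134 ± 1.2 to 94.4 ± 6.78 CPM (SD, n = 3; log2 fold change -0.50 ± 0.04, edgeR adjusted p = 5.47e-17), and it is named here after its value was seen. The transporters Slc2a8 and Slc2a9 fell 6.33-fold and 2.80-fold. Slc16a1, which carries lactate across the membrane, rose from 215 ± 2.92 to 341 ± 2.14 CPM, while Bsg, the chaperone that brings it to the surface, fell from 617 ± 10.6 to 391 ± 4.78 CPM. The gene model of Bsg is short, 1814 bases. It is near the 1739 bases of Eno3, whose fall was not seen with the length trend removed. The change of Bsg with that trend removed is not given here.

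Among 13 regulators of the flux, 12 were tested, with 5 called lower and 5 higher. Txnip, which restrains glucose uptake and is induced by glucose, fell 24.8-fold, from 333 ± 11.5 to 13.5 ± 1.41 CPM (SD, n = 3; log2 fold change -4.63 ± 0.05, edgeR adjusted p = 2.97e-62). Pfkfb4, which sets the level of the phosphofructokinase activator fructose 2,6-bisphosphate, fell 3.14-fold from 33.9 ± 1.57 to 10.8 ± 0.947 CPM. Of the enzymes acting on pyruvate dehydrogenase, the inhibitory kinase Pdk2 went from 15.6 ± 1.70 to 0.771 ± 0.22 CPM and the activating phosphatase Pdp2 from 13.0 ± 1.98 to 56.5 ± 3.22 CPM. Other inhibitory kinases, named after their values were seen, went both ways, Pdk1 from 59 ± 0.709 to 34.2 ± 2.17 CPM and Pdk3 from 64.8 ± 1.77 to 108 ± 1.75 CPM, 1.67-fold higher. The 35 overexpression counts of Pdk2 limit the precision of its fold.

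In the list for the entry of pyruvate into mitochondria 4 of 8 tested genes were called higher and 2 lower, with a median log2 fold change of 0.29. That median was 0.62 with the length trend removed, 0.06 with upper quartile scaling and 0.55 without control replicate 3. The 4 that rose encode parts of the pyruvate dehydrogenase complex, and Pdhb, a further subunit named after its value was seen, was called lower, from 130 ± 1.56 to 115 ± 2.41 CPM (SD, n = 3; log2 fold change -0.17 ± 0.04, edgeR adjusted p = 4.18e-05). Pdha1 rose 1.83-fold to 213 ± 5.52 CPM, Dlat 1.65-fold to 125 ± 2.31 CPM, Pdhx 1.85-fold to 36.1 ± 2.66 CPM and Dld 1.35-fold to 174 ± 5.45 CPM (SD, n = 3). With the length trend removed 4 were higher and 1 lower. Of the 7 gluconeogenesis genes 2 were tested and both called lower, Pck2, the mitochondrial enzyme that makes phosphoenolpyruvate, from 120 ± 4.84 to 28.2 ± 1.55 CPM and G6pc3 from 21 ± 0.786 to 14.8 ± 2.98 CPM. The call on G6pc3 was lost with the length trend removed (edgeR adjusted p = 0.655).

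**Figure D4:**
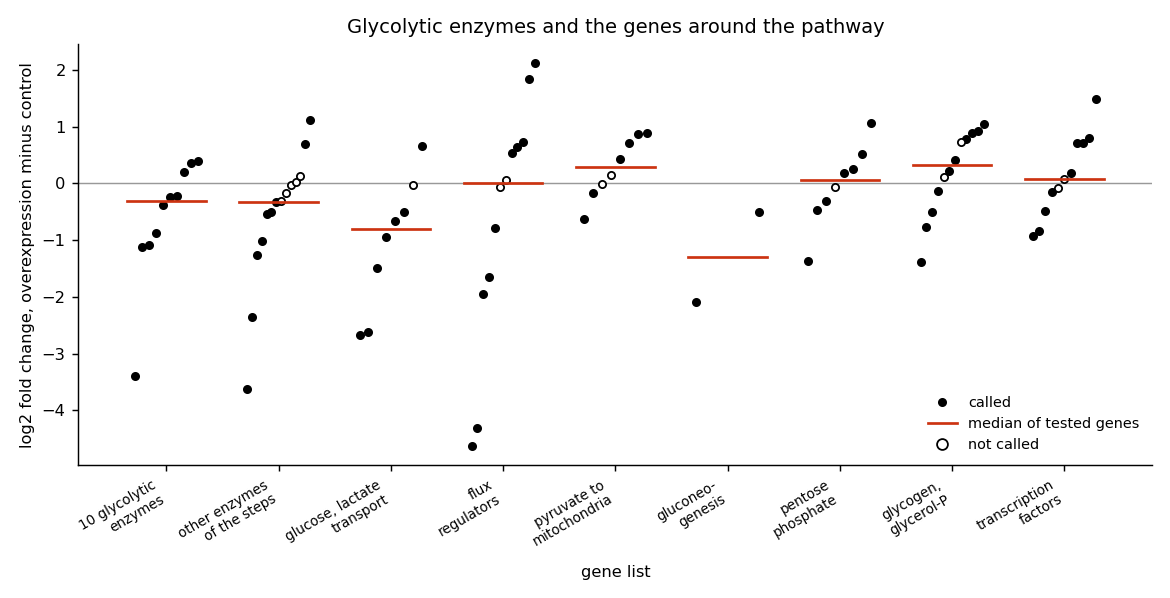
Log2 fold change (overexpression minus control, edgeR) of the tested genes of each list, sorted within the list, filled where called at an adjusted p under 0.05, with the median as a red line. The 10 glycolytic enzymes have a median of -0.31, the transport genes -0.81 and the genes for pyruvate entry 0.29.

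The pentose phosphate pathway leaves glycolysis at glucose 6-phosphate and makes NADPH and ribose. Of its 8 genes, all tested, 4 were called higher and 3 lower, and with upper quartile scaling 2 and 4. Pgd, which makes NADPH, rose 2.10-fold from 114 ± 3.47 to 240 ± 8.92 CPM (SD, n = 3), and Pgls, the lactonase just before it, fell 2.58-fold from 241 ± 10.6 to 93.2 ± 1.11 CPM. Rpe, an epimerase, rose 1.44-fold and Taldo1, the transaldolase, fell 1.39-fold, the latter not called with the length trend removed (log2 fold change -0.01).

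In the authors' deposited table, whose log2 values have the sign found here in 11759 of 11809 genes, the 10 enzyme genes ran from -3.38 for Aldoc to 0.41 for Pkm. All 10 had the same direction there as here.

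Against a minimum change of 1.5-fold, which edgeR can take as its null, Hk2, Gpi1, Aldoa and Aldoc were still called lower and none of the 10 higher, where 27% of tested genes were called lower and 23.4% higher. Upper quartile scaling shifted the median log2 fold change of all tested genes from -0.03 to -0.26 and their calls from 4975 higher and 5184 lower to 3961 and 6288. Under it 7 of the 10 were lower and 2 higher, and with the length trend removed 6 and 4.

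**Figure D5:**
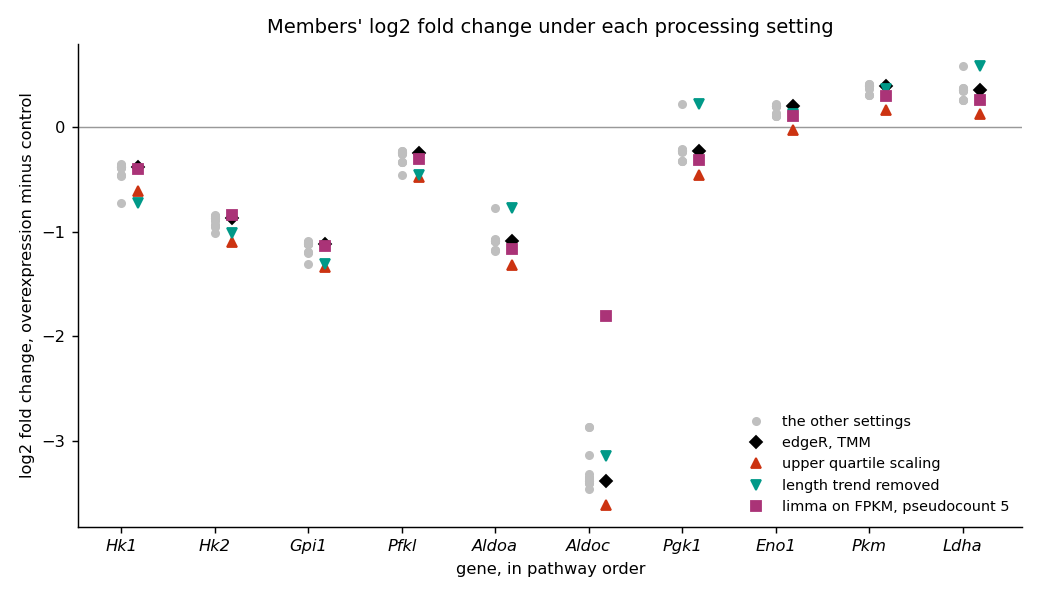
Log2 fold change (overexpression minus control) of the 10 genes under edgeR with TMM (diamonds), under 3 alternatives (coloured marks) and under the other settings (grey). Pgk1 crosses 0 with the length trend removed (0.23) and Eno1 with upper quartile scaling (-0.03), and the other 8 keep their side.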

How the data were processed

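Polyadenylated RNA of 6 PAM212 libraries was analysed from a table in which the authors deposited raw read counts and FPKM per gene, per the file headers. FPKM recomputed from the counts, the deposited gene lengths and the library totals equalled the deposited values. The authors' deposited table of differential expression holds log2 ratios with adjusted p-values. Per the submitters' processing notes HISAT2, HTSeq and DESeq were used, with no version named. The notes give mm9, but 21617 of 21936 genes, the 10 enzyme genes among them, have the coordinates of GENCODE M21 on GRCm38, which are used here. The strand setting and the treatment of shared reads are not stated.

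Counts were tested with edgeR 4.0.16 in R 4.3.3 (filterByExpr with a minimum count of 10, TMM, robust quasi-likelihood F test, Benjamini-Hochberg adjustment over 11809 genes, threshold 0.05). Levels are TMM-scaled CPM as mean ± SD over 3 libraries. Each SE was taken as the log2 change over the square root of its F value. The length trend was a lowess curve on log gene length, entered as an offset. Intervals and floors of 3 counts cover counting error only. Alternatives used DESeq2 1.42.0 and limma 3.58.1 on log2(FPKM + 0.1, 1 or 5). On simulated counts for 11694 genes edgeR recovered 192 of 200 changed genes with all 200 directions right, and it called 15 unchanged genes. That simulation changed few genes, all well counted, in random directions and without a length trend. It cannot speak for directions in these data, where 86% of tested genes were called and gene length moved with the groups. Libraries of a group differed by more than sampling noise. Named were the 10 enzyme genes, all tested enzymes of their steps and, of each other list, the up to 4 called genes with the smallest p (all, with 5 or fewer tested). The members and lists were chosen with earlier results of these data known.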

Additional observations from a re-analysis of the deposited data

How the results depend on the processing

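The 10 enzyme genes were recomputed under 20 alternatives, 2 of them chosen after seeing the data. Hk2, Gpi1, Aldoa and Aldoc were called lower in all 20, with ranges of -1.10 to -0.83, -1.34 to -1.09, -1.32 to -0.78 and -3.62 to -1.81. Hk1, Pfkl, Pkm and Ldha kept their direction in all 20 and lost the call against the 1.5-fold minimum alone. Against that minimum 3185 genes were called lower (27% of those tested) and 2762 higher (23.4%), and of the 10 enzymes 4 lower and 0 higher. For the other lists a count is given here only where it moved by more than 1.5-fold from edgeR with TMM. A direction left out had not moved by that much, and it is not a count of 0. Against the minimum the other step enzymes had 3 lower, the flux regulators 3 higher, pyruvate entry 0 lower and gluconeogenesis 1 lower. The pentose phosphate genes had 1 lower and 1 higher, glycogen and glycerol phosphate genes 2 lower and transcription factors 2 lower. With the length trend removed, with or without the replicate block, 4 of the other step enzymes were higher, 1 gene of pyruvate entry lower and 1 of gluconeogenesis lower. Upper quartile scaling left 2 pentose phosphate genes higher.

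Directions turned for 8 of the 52 genes recomputed. With the length trend removed Pgk1 stood at 0.23, Eno1b at 0.50, Eno3 at 0.047, Gapdhs at 0.27 and Bpgm at 0.011, and with the replicate block added at 0.23, 0.50, 0.047, 0.25 and 0.017. Upper quartile scaling gave -0.026 for Eno1, -0.20 for Tpi1 and -0.093 for Eno4. Limma on FPKM gave -0.064 for Tpi1 with pseudocounts of 0.1 and 1, also unfiltered, and -0.062 with 5. With 1 library left out, 3 genes that were not called ran through 0, Gapdhs from -0.77 to 0.076, Eno1b from -0.045 to 0.0053 and Eno4 from -0.023 to 0.23. The cause was not tested. In edgeR's block on the replicate number 5161 genes were called lower and 4955 higher, and it changed no call on the 10 enzyme genes. Libraries with the same number deviated from their group means with correlations of -0.00, -0.00 and -0.03, so the numbers were not taken to pair the samples. Depth limits Pdk2, Ldhb, Pgam2 and Gapdhs, whose overexpression libraries each held few counts.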

Other observations

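Glycogen and glycerol phosphate genes, which draw on the hexose and triose phosphates of glycolysis, went both ways. Of 14 listed genes 12 were tested, 6 called higher and 4 lower. Pgm1, a phosphoglucomutase that links glycogen to glucose 6-phosphate, fell 2.61-fold from 128 ± 3.49 to 49.2 ± 0.416 CPM (SD, n = 3), while its relative Pgm2 rose 1.72-fold from 40.3 ± 2.72 to 69.2 ± 7.51 CPM. Gys1, the glycogen synthase, fell 1.71-fold to 35.8 ± 1.82 CPM. Gpd2, the mitochondrial dehydrogenase of the glycerol phosphate shuttle, rose 2.07-fold from 77.5 ± 0.462 to 160 ± 6.33 CPM.

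Of 13 transcription factors known to act on glycolytic genes 11 were tested, 5 called higher and 4 lower, and 4 and 6 with upper quartile scaling. Myc rose 1.64-fold from 179 ± 4.09 to 293 ± 7.32 CPM, Foxk2 2.81-fold from 79.9 ± 3.39 to 225 ± 5.04 CPM and Foxk1 1.74-fold to 88.7 ± 3.28 CPM (SD, n = 3). Esrra fell 1.90-fold from 93.8 ± 3.43 to 49.2 ± 1.59 CPM. Hif1a, named after its value was seen, went from 290 ± 7.92 to 261 ± 7.10 CPM, a log2 fold change of -0.15 ± 0.03 (edgeR adjusted p = 1.8e-06). Epas1 had 0 counts in every library.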
